A study of Homo sapiens with 6 samples.

Results

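The genes described here make ribosomes: 41 genes of ribosome biogenesis and RNA polymerase I, taken from the array value table by gene symbol and measured in KOPTK1 cells with and without a CDK4/6 inhibitor. KOPTK1 is an established human cell line of T-cell acute lymphoblastic leukaemia (T-ALL), so both groups are 1 line in culture. The 3 vehicle arrays hold RNA of cells kept with vehicle, and the 3 PD0332991 arrays hold RNA of cells kept with 1 µM PD0332991, in both cases for 48 h and, per the series' design text, in biological triplicate. PD0332991 is palbociclib, an inhibitor of CDK4 and CDK6, the kinases that drive entry into S phase. A gene counted as measured when at least 1 probe set carried its symbol alone, and the probe set with the highest mean over the 6 arrays stood for it. That left 36 of the 41 members, among 19775 genes in all. NOP56, DKC1, BOP1, DDX18 and GNL3 had no such probe set and were not analysed here.

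Ribosome production starts in the nucleolus, where RNA polymerase I copies the ribosomal DNA into a long precursor RNA. Small nucleolar ribonucleoproteins (snoRNPs) guide the chemical modification of that precursor, and large assemblies of processing factors cut it and fold it with ribosomal proteins into the small and the large subunit. RNA polymerase III supplies the 5S rRNA and the tRNAs. In lymphoid leukaemia many of these genes are known as targets of MYC, which binds the E-box CACGTG, and the pathway is known for its tie to cell growth.

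The letters CACGTG were common in the promoters of these genes. RefSeq promoter windows of GRCh38.p14, 250 bases before to 50 after the start of the gene, were at hand for 32 of the 41 members, and 12 of the 32 (37.5%) held CACGTG, against 2030 of 27305 promoters in the whole table (7.43%). The other ribosome biogenesis genes held it in 40 of 141 promoters (28.4%) and the cytoplasmic ribosomal protein genes in 3 of 63 (4.76%). CACGTG is its own reverse complement, so both strands are searched at once. Where it occurred, a site began after the start of the gene in 10 of the 12 members (83.3%) and in 249 of the 2030 promoters of the table that held one (12.3%), and in 16 of the 40 other biogenesis genes (40%). TTTGAA, the core of the CHR element of G2 and M phase genes, was found on either strand in 3 of the 32 members (9.38%) and in 15.4% of all promoters. TTTCCCGC or TTTGGCGC, forms of the E2F site, stood on either strand in 1 of the 32 (3.12%), against 2.31% of all. In the 32 promoters found for 38 cell division genes, TTTGAA stood in 15 (46.9%), the E2F forms in 9 (28.1%) and CACGTG, the most frequent of the 3 among the members, in 6 (18.8%). These are matches of letters, not measured binding.

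Shown next, 5′ to 3′ on the strand of the gene with CACGTG in capitals, are stretches around the site for the 2 members with the largest increase and the 2 with the largest decrease among those called that held it, MYBBP1A (chr17:4555352-4555381, minus strand), PES1 (chr22:30591881-30591957, minus strand), MRTO4 (chr1:19251759-19251834, plus strand) and FBL (chr19:39846350-39846433, minus strand). The site begins at base 28 of the gene in MYBBP1A, 14 in PES1, 15 in MRTO4 and 7 in FBL.
MYBBP1A: ctggaagcggctggggccggagcaCACGTG
PES1: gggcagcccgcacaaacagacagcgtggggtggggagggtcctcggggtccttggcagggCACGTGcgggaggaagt
MRTO4: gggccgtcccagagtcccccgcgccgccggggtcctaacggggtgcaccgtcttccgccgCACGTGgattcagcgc
FBL: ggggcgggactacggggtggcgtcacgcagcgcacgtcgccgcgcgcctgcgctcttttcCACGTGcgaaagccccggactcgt
The first 2 of these genes were higher with PD0332991 and the last 2 lower. CACGTG was held by 3 of the 7 members called higher, by 2 of the 3 called lower that had a window, and by 7 of the 19 not called.

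After 48 h of PD0332991 most ribosome biogenesis RNAs stayed close to their vehicle level, while cell division RNAs fell severalfold. Of the 36 members, 7 were higher and 4 lower at an adjusted p under 0.05 in limma (Benjamini-Hochberg over all genes), 30.6% of the members against 29.3% of all genes. By direction, 15.6% of all genes were called higher and 13.6% lower. The share of members called is near that background. It is below the 49.3% called among genes brighter than the median gene, to which 35 of the 36 members and all 11 called ones belong. When only those brighter genes were fitted, 12 members were higher, against 32.9% of the genes fitted, and 6 lower, against 29.3%. With quantile normalization 8 members were higher and 2 lower. The counts moved with single arrays: 4 were higher without vehicle replicate 2, and 2 were lower with vehicle replicate 1, vehicle replicate 2 or PD0332991 replicate 1 left out, and 1 with PD0332991 replicate 3 left out. Log2 fold changes, on the log2(intensity + 16) scale here and below, ran from −0.37 to 0.46 with a median of 0.07, against a median of 0.01 over all genes. No member changed 2-fold, and the 95% intervals of all 36 lay between −0.55 and 0.66, whereas 4.06% of all genes were called with a change of at least 2-fold. For 22 of the 36 members the vehicle and PD0332991 arrays did not overlap, 14 higher and 8 lower, against 43% of all genes (23% higher and 20% lower). The same held for 105 of 160 other ribosome biogenesis genes measured, 56 higher and 49 lower. The share without overlap among genes brighter than the median gene was not computed. The mean of the members relative to their vehicle mean was −0.02 to 0.01 on the vehicle arrays and 0.06, 0.06 and 0.07 on the PD0332991 arrays.

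Each array reports an RNA relative to the others on it, so these values do not show whether cells held more or less RNA in all, and in bulk samples fewer cells of a kind and less RNA per cell cannot be told apart. The array medians lay between 49.1 and 54.3. The T lineage markers matched the label, with the mean over the 6 arrays above an intensity of 100 for all 13 measured. The mean was below 100 for each of 5 myeloid and 7 stromal and epithelial markers, and above 100 for 1 of 2 erythroid markers. MPO, the 1 myeloid marker called, read 106, 102 and 103 with vehicle and 89.9, 78.9 and 82.4 with PD0332991 on its brightest probe set. Its other, dimmer probe set pointed the other way with overlapping groups, at 0.20 (adjusted p = 0.225). T lineage markers were themselves higher with PD0332991, 9 of 13 called, and their summed intensity was 32994 to 34941 on the vehicle arrays and 41841 to 42802 on the PD0332991 arrays. The part of this shift in the results below was not tested. Of 5 B lineage markers, 2 had a mean above 100, and CD79A, one of them, had a log2 fold change of 0.94 on one probe set and 0.05 (adjusted p = 0.709) on another.

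**Figure D1:**
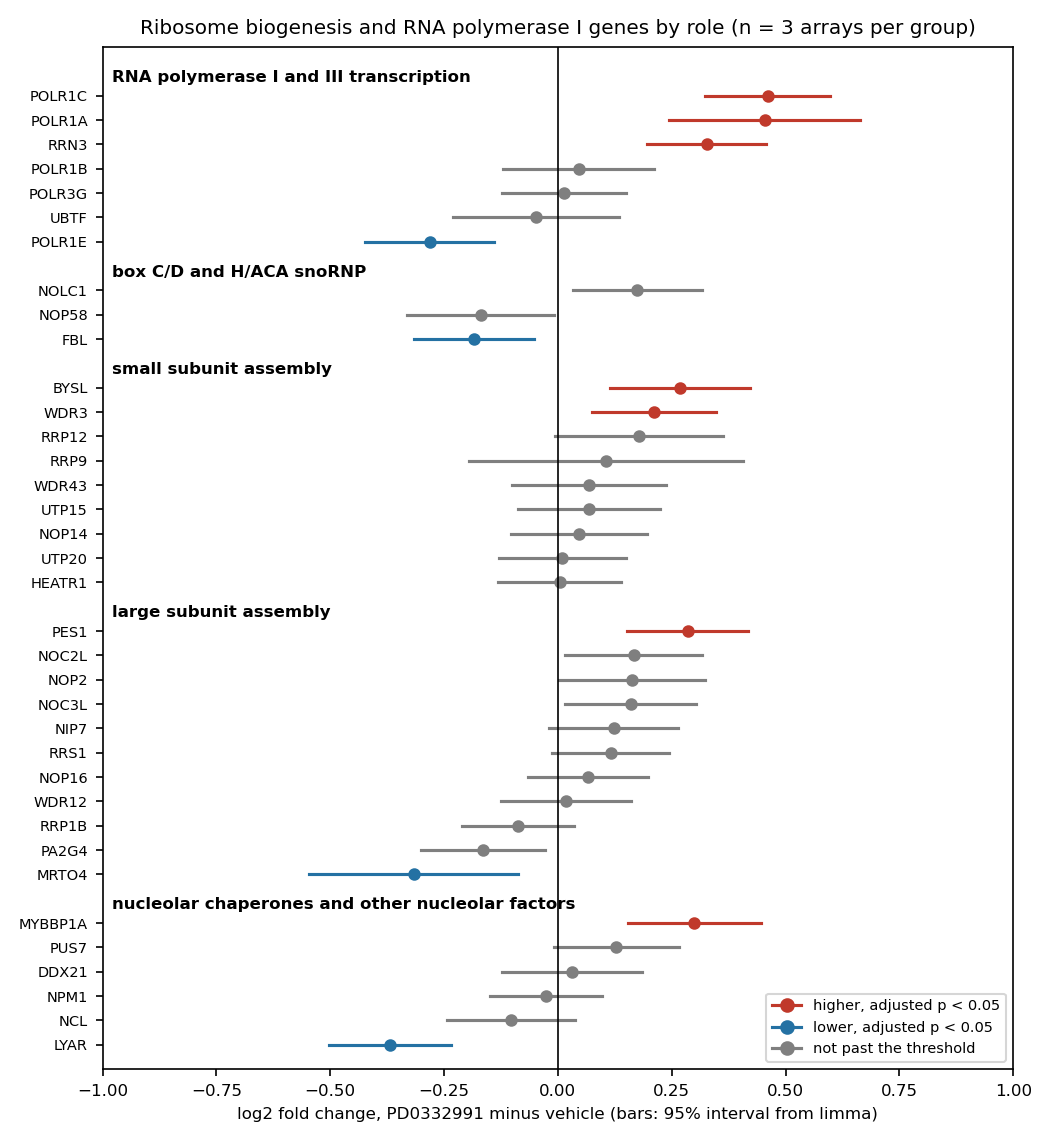
Log2 fold change of each measured member (PD0332991 minus vehicle, n = 3 arrays per group), with the 95% interval from limma as a bar and the members grouped by role. Called increases (7) and decreases (4) are coloured, and every interval lies between −0.55 and 0.66.

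RNA polymerase I and its factors held the largest increases. Of 7 members in this role, POLR1C, POLR1A and RRN3 rose and POLR1E fell, while POLR1B, UBTF and POLR3G did not pass. The median of the 7 was 0.05. The share called was 57.1%, against 29.3% of all genes and 49.3% of genes brighter than the median gene. POLR1C, a subunit shared by RNA polymerases I and III, read 773, 763 and 797 with vehicle and 1118, 1072 and 1038 with PD0332991. All 3 treated arrays were above all 3 vehicle arrays, with a log2 fold change of 0.46 (SE 0.06, adjusted p = 0.0018), or 1.38-fold. POLR1A, the largest catalytic subunit, went from 236, 213 and 227 to 299, 296 and 352, again without overlap, a log2 fold change of 0.45 (SE 0.09, adjusted p = 0.010). In the fit over all probe sets both other POLR1A probe sets rose too, by 0.51 (adjusted p = 0.0124) and 0.78 (adjusted p = 0.0048), and the other POLR1C probe set rose by 0.38 (adjusted p = 0.0072). RRN3, also known as TIF-IA, recruits the polymerase to the ribosomal DNA promoter. Its intensities of 1071, 1079 and 1054 became 1394, 1319 and 1317, 1.25-fold higher (log2 fold change 0.33, SE 0.05, adjusted p = 0.0057).

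POLR1E, a subunit that forms a heterodimer on the polymerase, moved the other way, from 606, 597 and 638 to 489, 521 and 495 (log2 fold change −0.28, SE 0.06, adjusted p = 0.0139). The groups did not overlap. Without PD0332991 replicate 3 its adjusted p was 0.0528, and with the mean of its 3 probe sets 0.131. POLR1B, the second-largest subunit, read 1438, 1406 and 1285 with vehicle and 1487, 1386 and 1388 with PD0332991, so the groups overlapped, and its difference of 0.05 had a 95% interval of −0.12 to 0.21. UBTF encodes UBF, which keeps ribosomal genes in an open state. It was at 1345, 1420 and 1564 and then at 1395, 1444 and 1342, a difference of −0.05 (95% interval −0.23 to 0.13). POLR3G, a variant subunit of RNA polymerase III, was at 0.01 (95% interval −0.12 to 0.15).

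**Figure D2:**
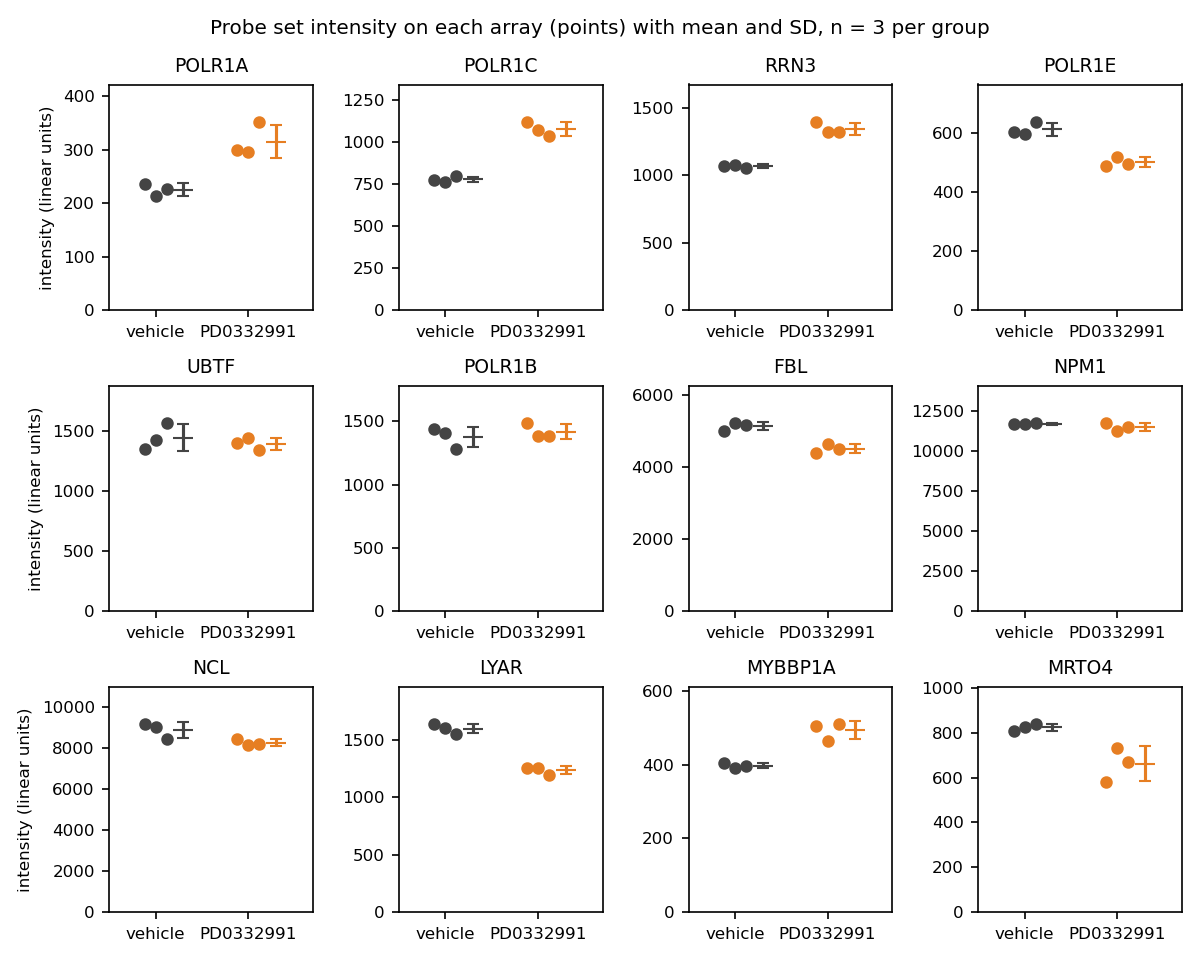
Intensity of 12 members on each array (points, linear units, axes from 0), with the mean and SD of each group (n = 3). POLR1A, POLR1C, RRN3 and MYBBP1A were higher and POLR1E, FBL, LYAR and MRTO4 lower with PD0332991 without overlap, NCL was lower without overlap but not called, and UBTF, POLR1B and NPM1 overlapped.

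The rest of the polymerase I and III machinery also went both ways, 6 of 28 measured genes higher and 7 lower. TAF1A, TAF1B, TAF1C and TAF1D are subunits of SL1, the factor that selects the ribosomal DNA promoter. TAF1A fell from 464, 430 and 405 to 273, 263 and 284 (log2 fold change −0.63, adjusted p = 0.0013), whereas TAF1C rose from 481, 507 and 481 to 784, 753 and 727 (0.61, adjusted p = 6.9e-04). Of the SL1 subunits just named, TAF1B and TAF1D were chosen after seeing their values. TAF1B fell by 0.36 (adjusted p = 0.0030), and TAF1D overlapped at 0.06 (adjusted p = 0.629). TCOF1, the nucleolar phosphoprotein treacle, fell by 0.66 on its brightest probe set and by 0.57 (adjusted p = 0.0011) on the next. Of the polymerase III subunits, POLR3D rose by 0.60 and POLR3B by 0.40, and so did POLR3F by 0.38, POLR3A by 0.34 and POLR3E by 0.28, where POLR3F, POLR3A and POLR3E were chosen after seeing their values. POLR3K, a small subunit of the same enzyme, fell from 663, 636 and 649 to 278, 333 and 334, a 2.02-fold decrease (log2 fold change −1.01, SE 0.08, adjusted p = 4.1e-04). The increases of POLR3A, POLR3B and POLR3E did not pass with the mean of their probe sets (0.14, 0.12 and 0.11), where dim probe sets count as much as bright ones. For POLR3E the next probe set is also bright, with a mean of 670 with vehicle and 723 with PD0332991. It was higher without overlap but not called, at 0.11 (adjusted p = 0.3445).

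Among the 3 measured snoRNP members, FBL was lower, NOP58 and NOLC1 did not pass, and all 3 separated the groups. FBL, fibrillarin, is the methyltransferase of box C/D snoRNPs. It read 5005, 5221 and 5169 with vehicle and 4402, 4656 and 4491 with PD0332991, all lower (log2 fold change −0.18, SE 0.05, adjusted p = 0.0489). This call is weak: leaving out any 1 array gave an adjusted p between 0.0677 (without PD0332991 replicate 2) and 0.152 (without vehicle replicate 2), and 12 of 15 alternatives ended it. NOP58, a core protein of the same particle, was at 5114, 4991 and 4546 and then at 4470, 4267 and 4267 (−0.17, adjusted p = 0.114). NOLC1, a nucleolar chaperone of snoRNPs, lay on the other side, at 5170, 5054 and 4712 and then at 5647, 5584 and 5622 (0.17, adjusted p = 0.0728). Of 13 other snoRNP genes, 4 were lower and 1 higher, with a median of −0.16. SHQ1, an assembly chaperone of H/ACA snoRNPs, fell by 0.64 on the log2 scale, and PIH1D1, of a chaperone complex for box C/D assembly, by 0.37. ZNHIT3, of the same assembly pathway, was at −0.31, and leaving out vehicle replicate 1, PD0332991 replicate 2 or PD0332991 replicate 3 ended its call (adjusted p 0.0505 to 0.0721). ZNHIT6, another box C/D assembly factor, rose by 0.42.

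All 9 members that build the small subunit had a log2 fold change above 0 in the fit as described, with a median of 0.07, but only BYSL and WDR3 were called. Over all genes, 10267 of 19775 lay above 0, with a median of 0.01. The share called was 22.2% of the 9, against 29.3% of all genes and 49.3% of genes brighter than the median gene. The sign turned for HEATR1 (−0.029) and UTP20 (−0.024) with median centring, for RRP12 (−0.099) with the mean of probe sets, for WDR3 with _x_at and _s_at probe sets removed, and for RRP9, HEATR1 and UTP20 when certain single arrays were left out. BYSL, a factor of late small subunit maturation, went from 936, 930 and 1001 to 1132, 1214 and 1116 (0.27, SE 0.06, adjusted p = 0.0225). Its call ended with vehicle replicate 1, vehicle replicate 2 or PD0332991 replicate 2 left out (adjusted p 0.0639 to 0.0841). WDR3, of the small subunit processome, went from 1465, 1560 and 1506 to 1722, 1803 and 1728 (0.21, SE 0.06, adjusted p = 0.0334). Its groups did not overlap, yet leaving out any 1 array gave an adjusted p from 0.0596 (without PD0332991 replicate 1) to 0.110 (without vehicle replicate 1), and its other, dim probe set was at −0.0016. RRP12, an export factor of pre-ribosomes, was at 0.18 (adjusted p = 0.140) on the probe set used and fell by 0.53 (adjusted p = 0.0052) on a dimmer one that can match several transcripts. HEATR1, UTP20, NOP14, UTP15 and WDR43, all of the small subunit processome, lay between 0.0040 and 0.07 with overlapping groups, and 1 of the 4 other HEATR1 probe sets rose by 0.26 (adjusted p = 0.0430). The other UTP15 probe set was higher without overlap but not called, at 0.28 (adjusted p = 0.0732). RRP9, a protein of the U3 snoRNP, was the dimmest member, at 60.2, 57.0 and 65.9 and then at 65.4, 55.4 and 81.5, and its 95% interval, −0.19 to 0.41, was the widest of the 36.

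Of 55 other small subunit factors, 11 were higher and 6 lower, with a median of 0.07. PDCD11 rose by 0.50, the helicase gene DDX52 by 0.49 and NOL6 by 0.47, the last with 0.31 (adjusted p = 0.143) as the mean of its probe sets. RRP7A fell by 0.55 and NOM1 by 0.53, although another RRP7A probe set rose by 0.35. NOC4L was at −0.37 and did not pass without vehicle replicate 1 or 3 or without any 1 of the PD0332991 replicates (adjusted p 0.0626 to 0.0891).

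Of 11 measured members that build the large subunit, PES1 rose, MRTO4 fell and 9 did not pass, and their median was 0.12. PES1 forms with BOP1 and WDR12 the PeBoW complex needed for maturation of the large subunit's RNA. It went from 441, 463 and 439 to 542, 564 and 541, 1.22-fold higher without overlap (0.28, SE 0.05, adjusted p = 0.0103). On its brightest probe set its partner WDR12 overlapped between the groups, at 1329, 1285 and 1213 and then at 1271, 1310 and 1292. The difference there was 0.02 (95% interval −0.12 to 0.16). In the fit over all probe sets, both dimmer WDR12 probe sets were higher without overlap but not called. They stood at 0.22 (adjusted p = 0.0995) and 0.27 (adjusted p = 0.0787). MRTO4 helps place the stalk of the large subunit. It read 805, 826 and 837 with vehicle and 578, 733 and 671 with PD0332991 (−0.32, SE 0.09), with an adjusted p of 0.049999 that lies at the threshold. Leaving out any 1 array except PD0332991 replicate 2 ended that call (adjusted p 0.0698 to 0.128). Its other probe set went from 238, 245 and 246 to 106, 133 and 138, a larger decrease of 0.87 on the log2 scale (adjusted p = 0.0018).

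The large subunit members that did not pass were above 0 in 7 of 9 cases, where 10267 of all 19775 genes lay above 0. NOC2L at 0.17, NOC3L at 0.16, NOP2 at 0.16, NIP7 at 0.12 and RRS1 at 0.12 each separated the groups, with adjusted p between 0.0976 and 0.184. NOP2 is a methyltransferase of the large subunit's RNA, and the others are assembly factors. NOP16, a nucleolar assembly factor, overlapped at 0.07. PA2G4, a nucleolar protein also named EBP1, read 3093, 3057 and 2908 and then 2619, 2752 and 2706, lower on all treated arrays (−0.16, adjusted p = 0.0765), and its other probe set fell by 0.37 (adjusted p = 0.0286). RRP1B was lower without overlap at −0.09 (adjusted p = 0.269). Of 48 other large subunit factors, 10 were higher and 7 lower, with a median of −0.0068. URB1 rose by 0.55, DDX31 by 0.49 and SURF6 by 0.45, URB1 with 0.32 (adjusted p = 0.0950) as the mean of its probe sets. BRIX1 fell by 0.67 and EFL1, the GTPase that acts with SBDS to release a last assembly factor, by 0.64. PELP1 was at −0.34, a call that ended when vehicle replicate 1 or 2, or PD0332991 replicate 1 or 3, was left out (adjusted p 0.0502 to 0.0627).

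Of the genes of nucleolar chaperones and other nucleolar factors, LYAR fell, MYBBP1A rose and NCL, NPM1, DDX21 and PUS7 did not pass. LYAR, a nucleolar protein tied to cell growth, had the largest decrease of all members on the probe set used. It went from 1634, 1604 and 1550 to 1253, 1251 and 1193, 1.29-fold lower without overlap (−0.37, SE 0.05, adjusted p = 0.0039), and its other probe set fell by 0.38 (adjusted p = 0.0108). MYBBP1A, which binds MYB and resides in the nucleolus, rose from 404, 390 and 397 to 504, 465 and 509 (0.30, SE 0.06, adjusted p = 0.0122). Without vehicle replicate 2 its adjusted p was 0.0522.

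NCL, nucleolin, read 9184, 9028 and 8479 with vehicle and 8467, 8150 and 8205 with PD0332991. The groups were close but did not overlap, and the difference of −0.10 (95% interval −0.24 to 0.04, adjusted p = 0.252) did not pass. NPM1, nucleophosmin, depended on the probe set. The brightest overlapped between the groups, at 11653, 11654 and 11724 and then at 11717, 11226 and 11473 (−0.03, 95% interval −0.15 to 0.10), and the next was at −0.09 (adjusted p = 0.357). The third went from 4302, 4227 and 4308 to 2824, 2861 and 2586, a decrease of 0.63 on the log2 scale (SE 0.07, adjusted p = 0.0011). The mean of the 3 was at −0.25 (adjusted p = 0.0138). DDX21, a helicase of polymerase I and II transcription, was at 0.03 and the pseudouridine synthase gene PUS7 at 0.13 (adjusted p = 0.149), higher on all treated arrays.

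**Figure D3:**
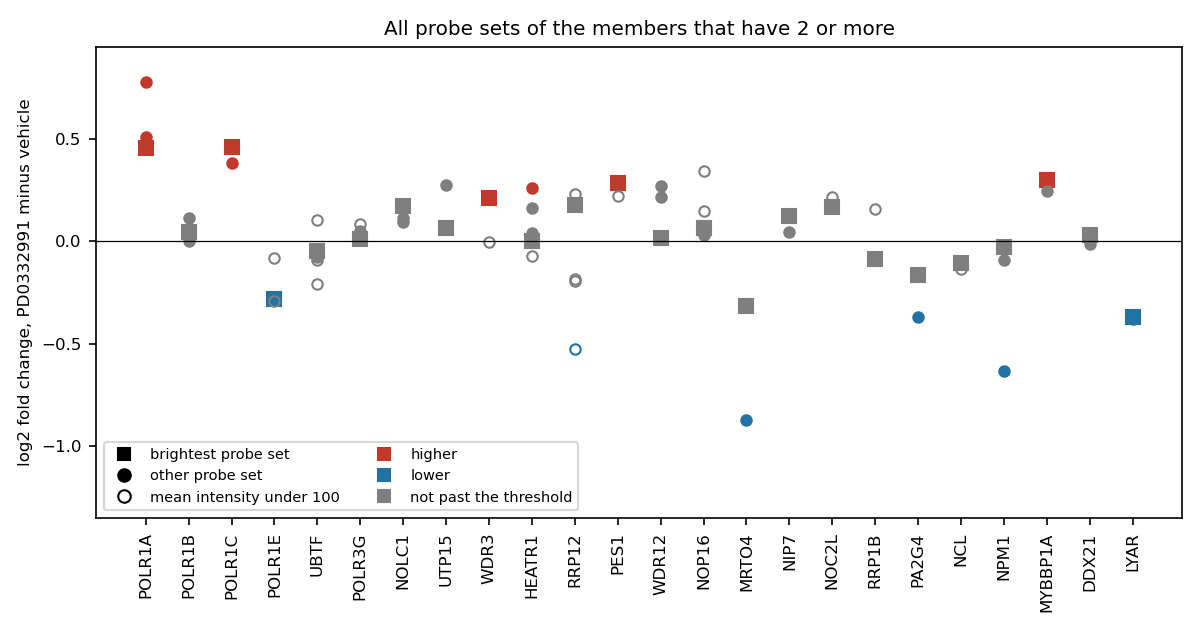
Log2 fold change of every probe set of the 24 members that have 2 or more (squares, the brightest; circles, the others; open symbols, mean intensity under 100), coloured by the call in a fit over all probe sets. No member had probe sets called in both directions. MRTO4, NPM1, PA2G4, LYAR and RRP12 had a dimmer probe set called lower, with a value below that of the brightest. For RRP12 the brightest was above 0 and not called.

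Probe sets of a member mostly pointed the same way. The 24 members with 2 or more probe sets had 43 others besides the brightest, and of the 25 others with a mean intensity of at least 100, 24 had the sign of the brightest. In the fit over all probe sets, 4 of the 43 were called higher and 5 lower, where 24.9% of all probe sets were called in either direction. FBL and MRTO4 did not pass in that fit on the same probe set (adjusted p = 0.0702 and 0.0596).

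The neighbouring steps of ribosome production differed in how many genes were called. Of 16 genes of the RNA exosome and rRNA trimming, 8 (50%) were lower and 0 higher in limma. Of all genes 13.6% were lower and 15.6% higher, and 49.3% of genes brighter than the median gene were called in either direction. At an unadjusted p under 0.05, 8 of the 16 were lower and 2 higher. The median of the 16 was −0.17. EXOSC8 and EXOSC9, subunits of the exosome's ring, fell 2.18-fold and 2.06-fold, from 1954, 1990 and 1812 to 851, 905 and 857 and from 1808, 1833 and 1820 to 819, 889 and 915. ERI1, an exonuclease that trims rRNA and acts on histone mRNA, fell by 0.64. Of 53 measured cytoplasmic ribosomal protein genes, none was called in limma, 2 were higher and 0 lower at an unadjusted p under 0.05, and their log2 fold changes ran from −0.12 to 0.30 with a median of 0.03. Leaving out PD0332991 replicate 2 made 1 of them higher, and a trend in eBayes 2. Another 26 of the 79 listed were not analysed here, and ribosomal protein probe sets can match processed copies. All 160 measured genes of the pathway that are no members had 28 higher and 32 lower, with a median of −0.0028. Of these genes 37.5% were called, against 29.3% of all genes and 49.3% of genes brighter than the median gene. Their split of higher and lower was 39 and 28 with quantile normalization and 17 and 32 with median centring. With vehicle replicate 1 left out, 17 were higher and 17 lower, and with vehicle replicate 2 left out, 15 and 18. With PD0332991 replicate 2 left out the numbers were 16 and 21, and with replicate 3 of that group left out 17 and 19.

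**Figure D4:**
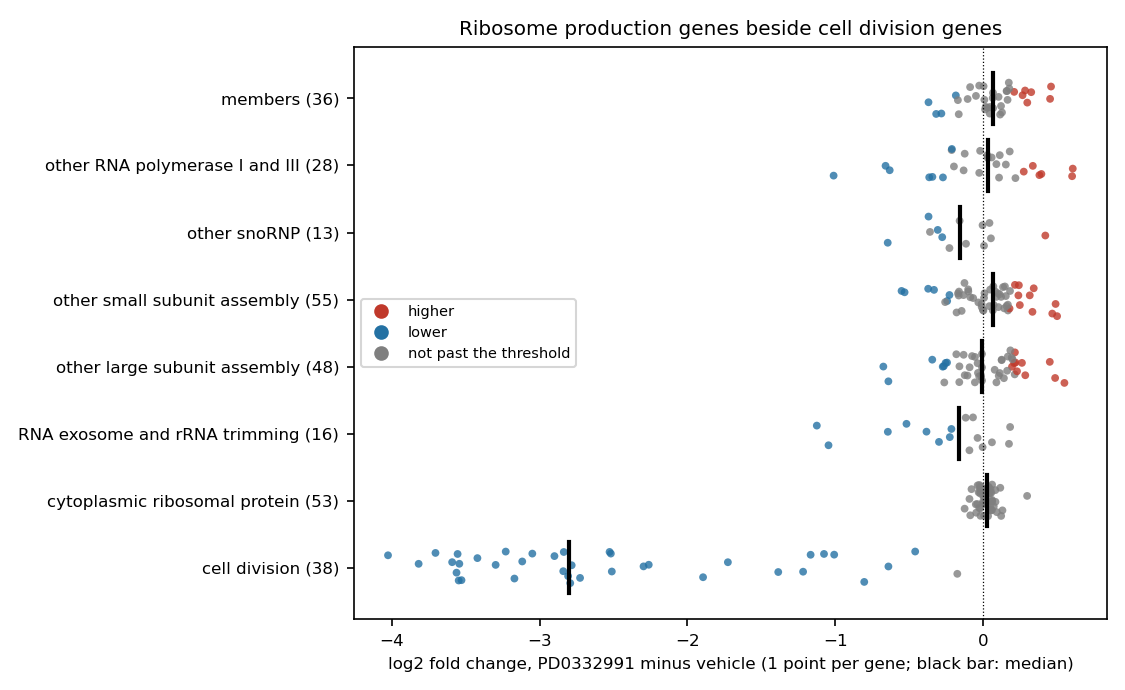
Log2 fold change of each gene (1 point per gene, PD0332991 minus vehicle) in the members, the other lists of ribosome production and the cell division list, with the median as a black bar and the number of genes in brackets. The members have a median of 0.07, the exosome list −0.17, the ribosomal protein genes 0.03 and the cell division genes −2.80.

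Cell division genes differed from the members in size and direction. Of 38 mitosis and replication genes, 37 fell and 34 changed at least 2-fold, with a median of −2.80, against 0 of the 36 members changed by as much. MKI67, the proliferation marker, went from 3190, 3174 and 3199 to 209, 266 and 298. CCNB2, named after its value was seen, was the gene that did not pass. Its brightest probe set read 2550, 2731 and 1397 with vehicle and 2284, 1904 and 1555 with PD0332991. The difference of −0.17 on this probe set had a 95% interval of −0.87 to 0.52. That is too wide to show from it whether CCNB2 fell. MYC, the transcription factor that binds CACGTG, was at 5170, 5605 and 5808 with vehicle and 5547, 5751 and 5673 with PD0332991, overlapping at 0.03 (SE 0.06). Of the other growth regulators measured, MTOR rose by 0.45 on its brightest probe set (0.16, adjusted p = 0.400, as the mean of 2) and EIF4EBP1, whose product restrains translation initiation, fell by 0.90. Of the inhibitor's targets, CDK6 rose by 0.43 and CDK4 fell by 0.66.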

How the data were processed

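Labelled RNA of 6 samples was hybridised to Affymetrix arrays, 1 colour each. The authors deposited a linear intensity for each of 54675 probe sets per array. Summarisation, background correction and scaling are not given in the sources used here. Trimmed array means lay between 282 and 294, so nothing was rescaled. There are no detection calls, and 25.5% of values lay below 16. The 62 control probe sets were left out. GEO's platform annotation gave 1 symbol for 41091 probe sets, several for 1801 and none for 11721, and symbols were updated by gene ID through RefSeq (GRCh38.p14; 54 unmatched kept theirs).

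The brightest probe set per gene was tested with limma 3.58.1 in R 4.3.3 (lmFit, eBayes, two-sided, 4 residual degrees of freedom) on log2(intensity + 16), which understates changes of dim genes, with Benjamini-Hochberg adjustment across the 19775 genes and a call at an adjusted p under 0.05. Adjusted p-values are all limma's. Lists were described by counts and medians, with no test of a list. The members and lists were chosen with earlier results of these data known. All members could be named; of each other pathway list, up to 3 called increases and 3 decreases without overlap, and of each comparison list up to 2, plus MYC and MKI67. Alternatives were each array left out, the replicate block, median centring, quantile normalization, brighter genes, other probe set rules, pseudocounts of 1 and 64, trend and robust eBayes, and other thresholds. On simulated data for this comparison with 19775 genes, 0 of 50 genes changed by 0.25 were called, 23 of 50 changed by 0.5, 32 of 50 by 1 and 47 of 50 by 2, with 9 of 19575 unchanged genes called. Only 200 genes changed there, which makes the adjustment stricter than in the real data. Figures were drawn with matplotlib 3.10.9.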

Additional observations from a re-analysis of the deposited data

How the results depend on the processing

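Of the 11 called members, POLR1A, POLR1C, RRN3 and LYAR passed in the same direction at an adjusted p under 0.05 under all 15 or 16 alternatives run for each, and the other 7 lost the call under at least 1. Of the 25 not called, 10 passed under at least 1. Other thresholds are not counted among these alternatives, and POLR1A, at 0.010021, did not pass at 0.01. With 1 array left out, 4 to 6 members were higher and 1 to 3 lower, with a median of 0.050 to 0.077; of the other biogenesis genes 15 to 21 were higher and 17 to 29 lower (median −0.011 to 0.013), and 0 to 1 ribosomal protein genes were higher. Same-numbered arrays deviated together with correlations of 0.0033, 0.08 and 0.08, and not every array correlated best with its own number, so the numbers were not taken as pairs. With the replicate block, 1 member was lower, and 13 other biogenesis genes were higher and 21 lower. With quantile normalization 2 members were lower (median 0.094), the other biogenesis median was 0.027 and 1 ribosomal protein gene was higher. With median centring the medians were −0.020 for all genes, 0.034 for members, −0.036 for other biogenesis genes (17 higher) and −0.0036 for ribosomal protein genes. Among brighter genes 12 members, 46 other biogenesis genes and 2 ribosomal protein genes were higher; there 32.9% of genes were higher and 29.3% lower. With a trend in eBayes 12 members and 2 ribosomal protein genes were higher, and with robust eBayes or a pseudocount of 1, 2 members were lower. At an adjusted p under 0.01, 2 members were higher and 1 lower. Over all 79 probe sets of the members, 11 were higher and 7 lower. With the mean of probe sets the other biogenesis median was 0.016, and 3 ribosomal protein genes were higher and 2 lower. With _x_at and _s_at probe sets removed, 18 other biogenesis genes were lower (median 0.045), 2 ribosomal protein genes were higher and 1 lower (median 0.0072), and the cell division median was −2.35; it was −2.62 with a pseudocount of 64, and a pseudocount of 64 left 1 ribosomal protein gene higher.

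Each value listed next turned its sign and did not pass there. With median centring POLR3G was at −0.019, UTP20 at −0.024, HEATR1 at −0.029, WDR12 at −0.015 and DDX21 at −0.0021. Without _x_at and _s_at probe sets DDX21 was at −0.015 and WDR3, which had been called, at −0.0016. With the mean of probe sets RRP12 was at −0.099 and RRP1B at 0.036. With 1 array left out POLR1B ran from −0.0023 to 0.078, UBTF from −0.10 to 0.011, POLR3G from −0.0074 to 0.040, UTP20 from −0.021 to 0.030, RRP9 from −0.013 to 0.21, HEATR1 from −0.022 to 0.021, WDR12 from −0.018 to 0.048, DDX21 from −0.0071 to 0.061 and MYC from −0.013 to 0.071. The causes were not tested. The number of arrays limits the precision, and the 95% intervals of members not called lay between −0.33 and 0.41.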
